A study of Mus musculus with 12 samples.

Results

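Ribosomal protein genes encode the protein components of the cytosolic ribosome, and the accessibility of their promoters was followed in thymic invariant natural killer T (iNKT) cells. Members were the protein-coding genes of the GENCODE vM21 mouse annotation whose symbol is Rpl or Rps with a digit, or Rplp0, Rplp1 or Rplp2, leaving out the Rps6k kinases. This gave 91 genes. A region belonged to a gene when its midpoint lay within 1000 bp of one of the gene's transcription start sites, and 122 of the 63309 regions of the deposited table did so, for 81 of the 91 genes (89.0%). Of the other protein-coding genes, 12753 of 21664 (58.9%) had such a region.

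Accessibility was measured by ATAC-seq, in which a transposase inserts sequencing adapters into open chromatin, so that more insertions mean a more accessible region. The cells came from the thymi of untreated mice 8-9 weeks old, either C57BL/6 mice with wild-type Hivep3 or Hivep3-/- mice, which lack the zinc finger protein HIVEP3 and were backcrossed to C57BL/6. iNKT1 cells were sorted as CD122+ ICOS-, iNKT2 cells as CD122- ICOS+ Izumo1r+ CD138- and iNKT17 cells as CD122- ICOS+ Izumo1r- CD138+. Thymi were pooled, the sorted subsets were mixed for the transposition and then sorted again on ICOS and CD138, with 2 libraries for each of the 6 combinations of genotype and subset and 12 libraries in all. The titles number the mice 1 and 2 within a genotype, whereas the protocol describes pooled thymi, so p-values measure the spread between these libraries. Values are log2 insertions per kb of 500 bp regions. Linear values added up to about 1.92e+06 in each library after the authors' normalization, so read depth is unknown and counting error could not be estimated. Below the median, libraries held between 73 and 491 different values.

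The libraries carried the marks of their labelled subsets, least clearly for iNKT2. The summed linear level of promoter regions of 6 iNKT1 markers (all 6 with a region, among them Tbx21 and Il2rb) was 1044 to 1061 in the iNKT1 libraries and 489 to 635 in the other libraries. For 7 iNKT17 markers, all with a region, it was 429 to 462 in iNKT17 and 34.6 to 42.4 elsewhere. The 7 iNKT2 markers, all with a region, gave 702 to 763 in C57BL/6 and 629 to 673 in Hivep3-/- iNKT2 libraries and 460 to 623 elsewhere, so the last gap was small. Among them, Icos and Il17rb were not highest in iNKT2 cells in either genotype, while Zbtb16, Gata3, Il4, Izumo1r and Cd4 were. No promoter region was listed for the 5 markers of double-positive thymocytes or the 3 of erythroid cells. A single region each was listed for the B cell (Pax5, 7.11 to 27.8 on the linear scale), myeloid (Spi1, 16.9 to 40.8) and epithelial (Epcam, 5.24 to 21.2) lists. The promoter region of Hivep3 was open in all libraries (6.36 to 6.72), which does not check the deletion, since accessibility of a promoter does not show whether the product is made.

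A ribosome is built from a small (40S) subunit, which reads the mRNA, and a large (60S) subunit, which joins the amino acids, and each protein is needed in near equal numbers. Most ribosomal proteins are encoded by a single active gene in mammals, with many processed pseudogenes scattered over the genome, and these genes are known for high transcription in growing cells. Their promoters mostly lack a TATA box, and transcription often starts at a C followed by a run of pyrimidines, the 5′ terminal oligopyrimidine (TOP) motif through which mTOR signalling controls translation.

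The start site sequences of 4 genes show the range in level. Rpl13a and Rpl37 had the most accessible regions near a start site, and Rps12 and Rpl10 the least accessible ones. Each is given 5′ to 3′ on the gene's strand, from 120 bases before the annotated start to 20 bases from it, read from the reference of build GRCm38.p6 (mm10). Capitals mark matches to the searched motifs described further on. Rpl13a is at chr7:45128742-45128881 on the minus strand, Rpl37 at chr15:5116525-5116664 on the plus strand, Rps12 at chr10:23786783-23786922 on the minus strand and Rpl10 at chrX:74271289-74271428 on the plus strand.
Rpl13a: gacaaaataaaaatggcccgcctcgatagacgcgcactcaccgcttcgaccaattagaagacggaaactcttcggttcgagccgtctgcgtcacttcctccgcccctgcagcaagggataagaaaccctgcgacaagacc
Rpl37: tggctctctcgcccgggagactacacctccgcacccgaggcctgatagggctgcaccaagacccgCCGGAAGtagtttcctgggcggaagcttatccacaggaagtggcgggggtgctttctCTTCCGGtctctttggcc
Rps12: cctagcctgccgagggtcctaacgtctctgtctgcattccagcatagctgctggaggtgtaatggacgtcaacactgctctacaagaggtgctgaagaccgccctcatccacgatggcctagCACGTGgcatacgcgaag
Rpl10: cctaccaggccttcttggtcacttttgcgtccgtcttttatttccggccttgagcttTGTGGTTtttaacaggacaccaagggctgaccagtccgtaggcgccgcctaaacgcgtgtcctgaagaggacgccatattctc
Rpl37 starts with a TOP motif and holds the ETS motif on either side of the start, at position -55 and, on the other strand, at position 2. The start shown for Rps12 belongs to a shorter annotated transcript inside the gene, and the same holds for Rpl10. Both genes had a more accessible region at the start that most of their transcripts share.

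Every one of the 46 genes of the 60S subunit and the 30 genes of the 40S subunit had a region. So did 4 paralogs (Rpl22l1, Rpl7l1, Rpl36al and Rps27l) and Rps19bp1, which the symbol rule picked although it encodes a binding partner of RPS19 and not a ribosomal protein. The 10 genes without a region were 6 annotated with pseudogene-like symbols (Rpl10-ps3, Rpl36-ps4, Rpl36a-ps1, Rpl9-ps1, Rpl9-ps6 and Rps12-ps3), the retrogene copy Rps27rt, and Rpl3l, Rpl10l and Rpl39l, tissue-restricted paralogs known from striated muscle (Rpl3l) and testis (Rpl10l and Rpl39l). The genes thus fell apart by kind: each widely expressed ribosomal protein gene was accessible near a start, and none of the pseudogene-like or tissue-restricted ones was listed. Of the 81 genes, 48 had 1 region, 27 had 2, 4 had 3 and 2 had 4. A total of 25 regions lay within the same distance of a start of another protein-coding gene, and their signal cannot be assigned to one gene.

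The promoters were more accessible than most. The mean over 12 libraries had a median of 6.15 over the region nearest to a start of each gene, against 5.63 for the nearest regions of other protein-coding genes, and 66 of the 81 member regions lay above that median. The median percentile of the members among the other genes was 65.7, so their level was high but inside the usual range of promoters. Over all 122 member regions the median was 5.77, against 5.10 for the 19750 regions at other coding promoters and 3.76 for all regions.

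**Figure D1:**
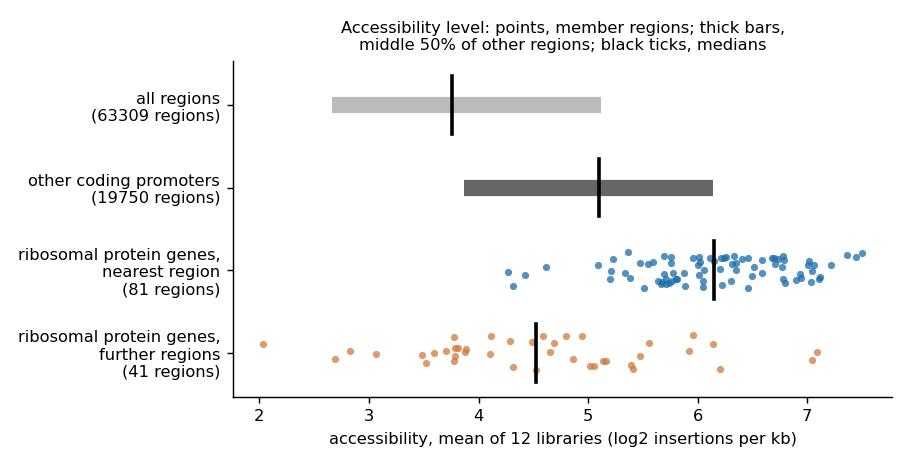
Accessibility of regions at ribosomal protein genes and elsewhere. The x axis gives the mean of the 12 libraries in log2 insertions per kb, each point is 1 member region, thick bars span the middle of the distribution of the other regions (25th to 75th percentile) and black ticks are medians. The nearest regions have a median of 6.15 and the further regions, which are the remaining regions of the same genes, a median of 4.53.

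The highest level was that of Rpl13a, a 60S protein that also takes part in translational silencing after interferon gamma. Its region at chr7:45128707-45129206 read 7.55 and 7.48 in C57BL/6 iNKT1, 7.58 and 7.60 in iNKT2 and 7.45 and 7.44 in iNKT17 libraries. In Hivep3-/- cells it read 7.52 and 7.41, 7.63 and 7.64, and 7.41 and 7.33. The iNKT2 libraries were the highest in both genotypes, by a small margin. Other high means were 7.45 at Rpl37, 7.21 at Rps29 and 7.12 at Rps27a, which is made as a fusion with ubiquitin. The lowest nearest regions were those of Rpl32 (5.09), Rps4x (4.61), Rps14 (4.42), Rps12 (4.32) and Rpl10 (4.27). For Rps14, Rps12 and Rpl10 the nearest region sat at the start of a shorter transcript, and the region with the most annotated starts had a mean of 7.09, 5.95 and 6.20.

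Both subunits had like levels. For each gene the region with the most annotated transcript starts was taken as its main region, a choice made after the values were seen, and it was also the nearest region in 76 of 81 genes. Main regions of 40S genes had a median level of 6.10 (range 4.61 to 7.21) and those of 60S genes 6.09 (5.09 to 7.50). The SD of the 6 group means had a median of 0.099 for 40S and 0.109 for 60S genes. At least 1 comparison of subsets called 13 of 30 main regions of 40S (43.3%) and 20 of 46 of 60S genes (43.5%). Both shares were below the background of 85.9% and the 71.3% of other coding promoter regions. The main regions of the 4 X-linked genes had a median of 5.87.

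Genes with known roles beyond the structure of the ribosome had levels within the same range. Rplp0, Rplp1 and Rplp2, whose proteins form the stalk that recruits elongation factors, had main region means of 7.04, 6.71 and 6.31. Rps6, whose protein is phosphorylated by the S6 kinases, had 6.40 and was among the least varied, with group means spanning 0.119. Rps19, the gene most often mutated in Diamond-Blackfan anaemia, had 6.90 and was lower in iNKT1 than in iNKT2 cells of C57BL/6 mice (change -0.29, adjusted p = 0.0161 by limma). Rpl5 and Rpl11, whose proteins bind MDM2 together with 5S rRNA, had 5.69 and 6.22. Rpl22, which is needed for the development of alpha beta T cells, had 6.26 and its paralog Rpl22l1 6.80. The other paralogs had 6.94 (Rpl36al, a region shared with Mgat2), 6.59 (Rps27l) and 5.76 (Rpl7l1), and Rps19bp1 had 6.20. The main regions of the X-linked Rpl36a and Rpl39 had 6.24 and 5.55.

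Variation between the groups was small. The SD of the 6 group means had a median of 0.122 over the member regions, and the SD between the 2 libraries of a group a median of 0.125. The first is taken over means of 2 libraries and the second over single libraries. They are therefore not on the same scale, and the first being no larger does not mean that groups differed no more than libraries. Over other coding promoters the values were 0.198 and 0.146, and over all regions 0.443 and 0.1995. The group means spanned less than 0.5 in 90 of 122 member regions (73.8%), in 48.6% of other coding promoter regions and in 21.8% of all regions. They spanned more than 1 in 5 member regions (4.10%), 23.4% of the other promoter regions and 54.6% of all regions. The least varied were Rps29 (SD of group means 0.034), Rpl41 (0.039) and a region centred at position -494 from the start of Rpl4 that is shared with Zwilch (0.042). Rps29 read between 7.16 and 7.30 in all 12 libraries.

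Part of this went with the level. The SD of the group means fell with the mean level across the 122 regions (r = -0.61, rho = -0.63, a description over regions that share the same libraries). Among regions with a mean of at least 6, the median SD was 0.0955 for members and 0.102 for other coding promoters. Between 4 and 5 it was 0.227 and 0.239. At like levels the members and the other promoters were thus close, and the gap was wider between 5 and 6 (0.122 and 0.163) and below 4 (0.267 and 0.446).

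**Figure D2:**
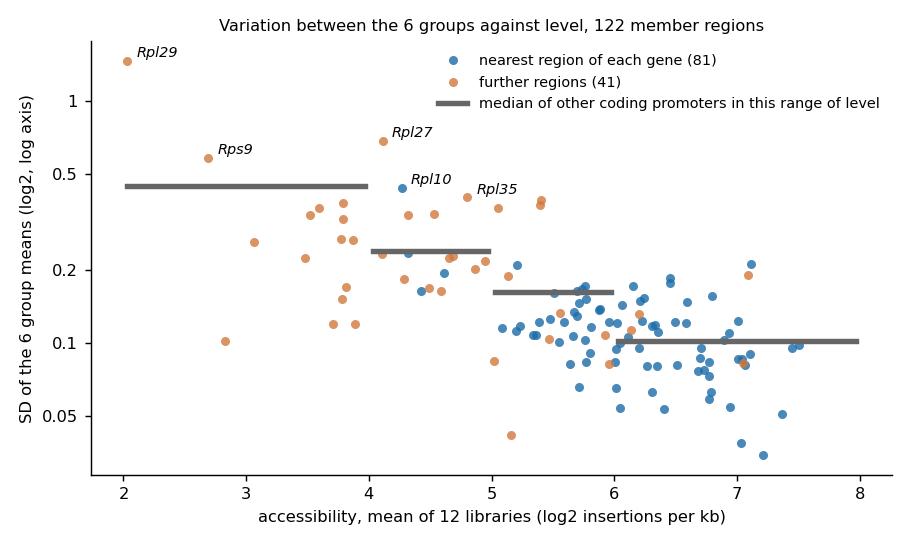
Variation between groups against level for 122 member regions. The x axis gives the mean of the 12 libraries (log2 insertions per kb), the y axis the SD of the 6 group means (log2, on a log axis), and grey lines mark the median of other coding promoters with a mean below 4, from 4 to 5, from 5 to 6 and from 6. Most nearest regions lie near or under an SD of 0.2, and the 5 most varied regions are named.

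Few member regions differed between the genotypes. In iNKT1 cells 0 of 122 member regions were called between Hivep3-/- and C57BL/6 by limma at an adjusted p under 0.1 and any fold, whereas 9.42% of all tested regions were. In iNKT2 cells 3 of 121 were called (1 higher and 2 lower in Hivep3-/-, background 16.4%), and in iNKT17 cells 0 of 120 (background 4.65%). At unadjusted p under 0.05, 3, 10 and 12 regions passed (2.46%, 8.26% and 10.0%). Of all tested regions 17.8%, 25.3% and 15.8% did, and of other coding promoter regions 8.68%, 15.7% and 10.3%. With the additional threshold of 3-fold used by the study, 0 member regions were called in any subset (background 1.15%, 1.68% and 0.271%). Of other coding promoter regions, 3.58%, 8.77% and 2.21% were called at any fold. Values of the members were lower in Hivep3-/- cells in 96, 76 and 99 of 122 regions, with a median change of -0.08, -0.05 and -0.11 for the 3 subsets in that order, beside -0.00, -0.03 and -0.03 over other coding promoters. The median level over the members varied by 0.114 (SD) between libraries of a group, and its ranges in the 2 genotypes overlapped in each subset. Between libraries of the same subset and number it was lower in Hivep3-/- in 6 of 6 pairs, by differences of -0.17 and -0.08 in iNKT1, -0.09 and -0.13 in iNKT2 and -0.09 and -0.15 in iNKT17 cells. Relative to the median of other coding promoters it was also lower in 6 of 6. The libraries paired in this way come from different mice, so a number marks no shared animal between genotypes. Within a genotype the 3 subsets carry the same mouse numbers, and subsets were mixed for the transposition. The 6 pairs are therefore not 6 independent comparisons. With the replicate number as a block, 4, 14 and 12 member regions were called (0, 1 and 1 higher in Hivep3-/-), which is 3.28%, 11.6% and 10.0% of those tested, beside backgrounds of 14.8%, 24.8% and 11.3% and 7.59%, 17.6% and 8.25% of other coding promoter regions. Leaving out each library gave 0 to 1, 1 to 6 and 0 to 4 calls.

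The 3 regions called in iNKT2 cells were at Rpl37, Rpl27a and Rpl22l1. The region inside Rpl37 at chr15:5117136-5117635 is centred on coding sequence, 99 bp after the start of a shorter transcript. It read 4.79 and 4.70 in C57BL/6 and 5.17 and 5.18 in Hivep3-/- iNKT2 libraries, without overlap. The change was 0.43 (SE 0.10, adjusted p = 0.0157). The main region of Rpl37, upstream of the gene, read 7.42 and 7.44 in C57BL/6 and 7.49 and 7.45 in Hivep3-/- iNKT2 libraries.

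The main region of Rpl27a, a 60S gene, is centred at position -177 from its start and was lower in Hivep3-/- cells. It read 6.83 and 6.68 in C57BL/6 and 6.45 and 6.41 in Hivep3-/- iNKT2 libraries. The change was -0.33 (SE 0.08, adjusted p = 0.0176). Rpl22l1, the paralog of Rpl22, was also lower, with 6.77 and 6.86 in C57BL/6 and 6.67 and 6.34 in Hivep3-/- libraries (change -0.30, SE 0.10, adjusted p = 0.0622). The genotypes did not overlap at either gene. Each of the 3 calls was lost when single libraries were left out, Rpl37 without C57BL/6 iNKT2 library 2 (adjusted p = 0.111; range over 10 alternatives 0.00330 to 0.111) and Rpl27a without C57BL/6 library 1 (0.159; range 0.00314 to 0.159). The Rpl22l1 change was -0.14 without Hivep3-/- library 2 (adjusted p = 0.391; range 0.0108 to 0.391), and this call was also lost without either C57BL/6 library, with equal promoter medians and without a variance trend.

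The change between genotypes was also compared between subsets, by the interaction term in limma at an adjusted p under 0.1. For iNKT1 minus iNKT2 and for iNKT1 minus iNKT17, 0 of 122 member regions were called (backgrounds 10.6% and 3.7%, with 4 and 0 member regions at unadjusted p under 0.05). For iNKT2 minus iNKT17 the inner region of Rpl37 alone was called (background 3.53%), with a difference of 0.50 (SE 0.14, adjusted p = 0.0997). At 3-fold 0 members were called in the 3 terms (backgrounds 3.47%, 1.56% and 1.27%).

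Subsets differed at more of the member regions, though at fewer than at other promoters. In C57BL/6 cells, 22 of 122 were called between iNKT1 and iNKT2 at any fold (13 higher and 9 lower in iNKT1, background 55.2%). Between iNKT1 and iNKT17 28 were called (21 higher and 7 lower in iNKT1, background 58.4%), and between iNKT2 and iNKT17 18 of 121 (12 higher and 6 lower in iNKT2, background 52.3%). In Hivep3-/- cells the counts were 29 (16 higher, 13 lower, background 59%), 34 (26 higher, 8 lower, background 56.9%) and 31 of 121 (23 higher, 8 lower, background 53.9%). In all 6 comparisons the share of members was below the background. Leaving out each library gave 15 to 22, 13 to 30 and 9 to 20 calls in C57BL/6 and 20 to 27, 18 to 41 and 22 to 40 in Hivep3-/- cells. For iNKT1 against iNKT17, 16 were called without C57BL/6 iNKT1 library 1 and 13 without C57BL/6 iNKT17 library 2, and 19, 18 and 22 without iNKT1 library 1, iNKT1 library 2 and iNKT17 library 2 of the Hivep3-/- cells. For iNKT2 against iNKT17 in C57BL/6, 9 were called without iNKT2 library 1. With mouse number as a block the counts in C57BL/6 rose to 37, 45 and 33 (backgrounds 62.3%, 64.9% and 59.7%), and those of Hivep3-/- cells to 43, 52 and 49 (66.1%, 63.3% and 61.4%).

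The changes were mostly small. At 3-fold, 1 member region was called between iNKT1 and iNKT2 and 2 between iNKT1 and iNKT17 in C57BL/6 (backgrounds 16% and 20.5%), 1 and 1 in Hivep3-/- cells (17.3% and 19.3%), and 0 between iNKT2 and iNKT17 in either genotype (16.2% and 15.6%). In those 2 comparisons 18 and 28 member regions had an unadjusted p under 0.05 (backgrounds 51.9% and 53.2%). The median changes were 0.04, 0.08 and 0.05 in C57BL/6 and 0.03, 0.12 and 0.11 in Hivep3-/- cells, in the same order. Of other coding promoters, 32.4% to 42.5% were called in the 6 comparisons. The subset with the highest group mean was iNKT1 for 58, iNKT2 for 39 and iNKT17 for 25 member regions in C57BL/6, and for 60, 46 and 16 in Hivep3-/- cells. The matching counts over all regions are not given, so these are not read as a trait of the members.

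**Figure D3:**
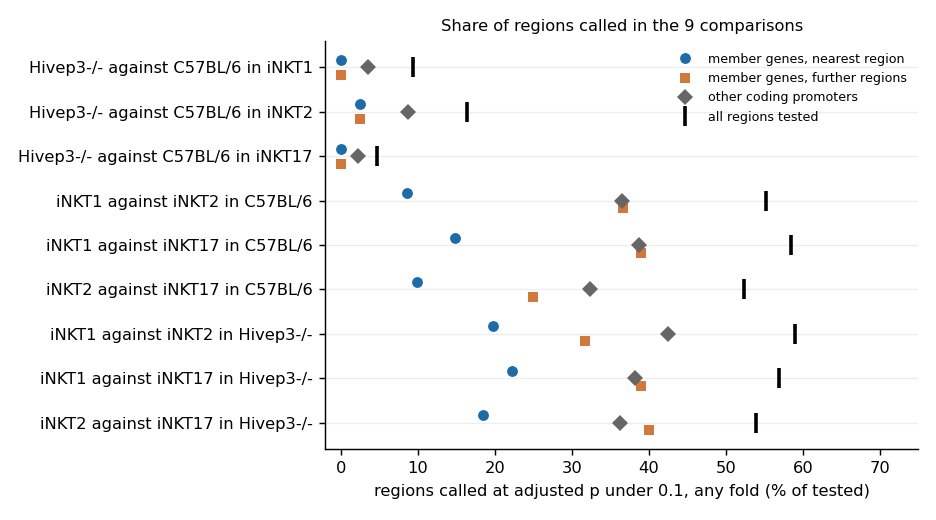
Share of tested regions called in 9 comparisons at an adjusted p under 0.1 and any fold. The x axis gives the percent of tested regions, blue circles the nearest regions of ribosomal protein genes, orange squares their further regions, grey diamonds other coding promoters and black bars all regions tested. The nearest regions are called less often than other coding promoters in each comparison, from 0% to 22.2%, and the further regions reach 40% in a subset comparison.

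A larger share of the other regions than of the main regions was called between subsets. At least 1 of the 6 subset comparisons called 65 of the 122 member regions (53.3%, background 85.9%), in 47 genes, and 71.3% of other coding promoter regions. Of the 81 main regions 36 were called (44.4%), and of the 41 others 29 (70.7%). The SD of the group means was at most 0.229 over the main regions and at most 1.46 over the others. In the 41 pairs of a main and another region of the same gene, from 33 genes, the main region had the higher level in 37 and the other region varied more in 32. The other regions had a median level of 4.32, against 6.15 for the main regions. Whether the lower level bears on the number of calls was not tested.

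Among the member regions, those centred on noncoding exons, introns or coding sequence were called more often than those in UTRs or upstream. All 8 regions centred on an exon of a noncoding transcript were called in at least 1 subset comparison. So were 13 of 18 in introns (72.2%), 4 of 5 in coding sequence (80%), 18 of 36 in UTRs (50%) and 22 of 55 upstream of the gene (40%). The background was 85.9%, and 71.3% of other coding promoter regions were called. Apart from the 8 in noncoding exons, no place was called more often than the background. The median level was 4.19 for the regions in noncoding exons and 6.11 upstream.

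The most varied region was in Rpl29, a 60S protein also known as a heparin-binding protein. It lies at chr9:106430629-106431128, with its midpoint in an intron, at position -191 from the start of a shorter annotated transcript. In C57BL/6 it read 3.80 and 3.77 in iNKT1, 2.06 and 1.53 in iNKT2 and 0.06 and 0.74 in iNKT17 libraries. In Hivep3-/- cells it read 3.73 and 3.997 in iNKT1, 1.52 and 0.94 in iNKT2 and 0.87 and 1.35 in iNKT17 libraries. All 4 iNKT1 libraries lay above the 8 others, while iNKT2 and iNKT17 overlapped in Hivep3-/- cells. iNKT1 exceeded iNKT2 by 1.99 in C57BL/6 (SE 0.34, adjusted p = 0.000308) and by 2.63 in Hivep3-/- cells (adjusted p = 2.55e-05). It exceeded iNKT17 by 3.39 (adjusted p = 2.2e-06) and 2.76 (adjusted p = 1.53e-05). These are low values, and the size of the change depends on the pseudocount. With 5 added on the linear scale the same differences were 1.14, 1.41, 1.57 and 1.45. The main region of Rpl29 read 5.77 to 6.33 in all libraries, with group means spanning 0.29.

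The 300 bases before the start of the shorter Rpl29 transcript are shown because they lie within this most varied region. They cover chr9:106430769-106431068 on the plus strand of GRCm38.p6 (mm10). The capitals mark the Runt motif, read on the opposite strand, at position -113 from that start.
Rpl29: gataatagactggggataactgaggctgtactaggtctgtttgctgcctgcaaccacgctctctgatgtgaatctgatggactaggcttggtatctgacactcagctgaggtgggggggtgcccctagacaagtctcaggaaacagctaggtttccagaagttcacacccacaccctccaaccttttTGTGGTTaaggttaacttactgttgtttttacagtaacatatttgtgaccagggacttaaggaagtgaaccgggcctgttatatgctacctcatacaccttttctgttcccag
The GC content of this stretch was 47.3%. The Runt motif was held by 17.4% of all regions.

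Rpl27 showed the same order of subsets in an intron. The region at chr11:101442758-101443257, 561 bp after the start, read 5.28 and 4.99 in C57BL/6 iNKT1, 4.39 and 4.01 in iNKT2 and 3.75 and 3.25 in iNKT17 libraries. The Hivep3-/- libraries read 4.69 and 4.59, 3.83 and 3.78, and 3.37 and 3.40. The 4 iNKT1 libraries lay above and the 4 iNKT17 libraries below all others. It was the single region called in all 6 subset comparisons. iNKT1 exceeded iNKT17 by 1.64 in C57BL/6 (SE 0.19, adjusted p = 8.78e-06) and by 1.25 in Hivep3-/- cells (adjusted p = 0.000102). The smallest of the 6 differences, iNKT2 against iNKT17, was 0.70 in C57BL/6 (adjusted p = 0.00872) and 0.42 in Hivep3-/- cells (adjusted p = 0.0946). The former was 0.52 without C57BL/6 iNKT2 library 1 and 0.45 without C57BL/6 iNKT17 library 2 and then missed the threshold (adjusted p = 0.101 and 0.113; range over alternatives 0.000531 to 0.113). The main region of Rpl27 read 6.98 to 7.32.

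Rpl10, whose protein is added late in 60S maturation and is needed for subunit joining, was also highest in iNKT1 cells at its inner region. This region at chrX:74271170-74271669 read 5.08 and 4.83 in C57BL/6 iNKT1, 4.07 and 3.88 in iNKT2 and 4.23 and 3.85 in iNKT17 libraries, and 4.62 and 4.69, 3.70 and 3.995, and 4.09 and 4.16 in Hivep3-/- libraries. The 4 iNKT1 libraries were above the 8 others. The difference between iNKT1 and iNKT2 was 0.98 in C57BL/6 (SE 0.17, adjusted p = 0.00042) and 0.81 in Hivep3-/- cells (adjusted p = 0.00153). The main region of the gene read 6.00 to 6.62. A region assigned to Rpl11 through the start of a noncoding transcript lies at chr4:136028236-136028735. It is far from the main region of the gene at chr4:136053167-136053666. The former gave 3.99 to 4.28 in iNKT1 and 3.19 to 3.87 in the other libraries. There iNKT1 exceeded iNKT17 by 0.79 in C57BL/6 (adjusted p = 0.00617 by limma). A region of Rps12 centred at position -246 from a start within the gene gave 3.90 to 4.11 in iNKT1 and 2.98 to 3.80 elsewhere, and iNKT1 exceeded iNKT2 by 0.82 in Hivep3-/- cells (adjusted p = 0.0124). The latter call was lost without Hivep3-/- iNKT2 library 2 (0.53, adjusted p = 0.127; range over alternatives 0.00523 to 0.127).

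Other regions were lowest in iNKT1 cells. At Rpl35, the region 477 bp after the start is shared with Arpc5l, a subunit of the actin-nucleating Arp2/3 complex. It read 4.26 and 4.22 in C57BL/6 iNKT1, 4.99 and 5.14 in iNKT2 and 4.89 and 4.88 in iNKT17 libraries. In Hivep3-/- cells it read 4.51 and 4.41, 5.38 and 5.31, and 4.93 and 4.68. The subsets did not overlap in either genotype. The change of iNKT1 against iNKT2 was -0.83 in C57BL/6 (SE 0.13, adjusted p = 0.000153) and -0.88 in Hivep3-/- cells (adjusted p = 7.3e-05).

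Rps14, a 40S gene known from the loss of part of a chromosome in a form of myelodysplasia, behaved alike at a region 115 bp after a far upstream start. This region lies at chr18:60747015-60747514 and the main region of the gene at chr18:60774195-60774694. The former is a member only through that start. In C57BL/6 it read 5.14 and 4.83 in iNKT1 and 5.83 and 5.71 in iNKT2 libraries. In Hivep3-/- cells it read 4.83 and 5.02 against 5.86 and 5.82. The changes of iNKT1 against iNKT2 were -0.78 (SE 0.13, adjusted p = 0.000218) and -0.91 (adjusted p = 4.87e-05). At Rpl9, a region centred at position -521 that is shared with Lias, a gene of lipoic acid synthesis, gave 4.09 to 4.14 in iNKT1 and 4.46 to 5.13 in the other libraries. Against iNKT17 the change in Hivep3-/- cells was -0.74 (SE 0.17, adjusted p = 0.00224).

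iNKT2 cells stood apart at several regions. The inner region of Rpl37 was lowest there: it read 4.70 to 5.18 in the 4 iNKT2 libraries and 5.49 to 5.71 in the 8 others. The change of iNKT2 against iNKT17 was -0.93 in C57BL/6 (SE 0.10, adjusted p = 5.76e-06) and -0.43 in Hivep3-/- cells (adjusted p = 0.00283). Rps4x had a region in coding sequence, at position -701 from a start within the gene, with 3.23 to 3.56 in iNKT2 and 3.77 to 4.24 elsewhere. The changes against iNKT17 were -0.66 (SE 0.18, adjusted p = 0.00723) and -0.93 (adjusted p = 0.000733). Rpl12 went the other way at a region 738 bp after its start, with 5.29 to 5.75 in iNKT2 and 4.39 to 5.07 elsewhere, and iNKT2 exceeded iNKT17 by 0.93 in Hivep3-/- cells (SE 0.19, adjusted p = 0.000945).

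A main region was also highest in iNKT2 cells. That of Rps27a, which is shared with Clhc1, read 7.28 and 7.35 in C57BL/6 and 7.36 and 7.45 in Hivep3-/- iNKT2 libraries, and 6.85 to 7.16 in the 8 others. The change of iNKT1 against iNKT2 was -0.42 (SE 0.07, adjusted p = 0.000255) in C57BL/6 and -0.47 (adjusted p = 8.54e-05) in Hivep3-/- cells. It was called in 5 of the 6 subset comparisons.

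**Figure D4:**
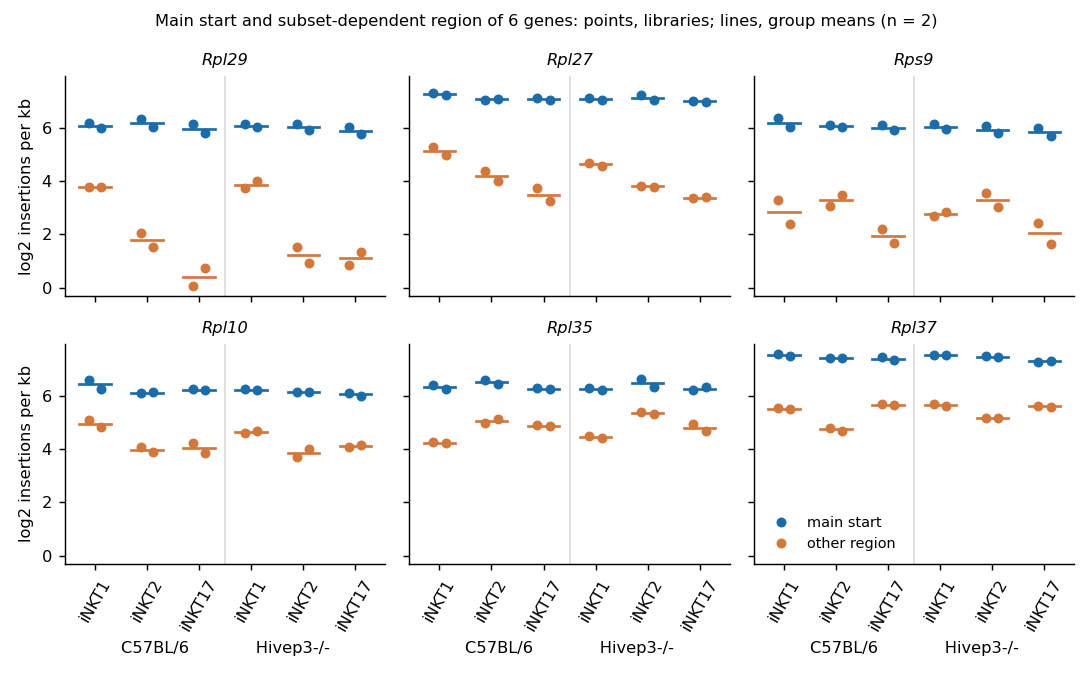
Main region and another region of 6 ribosomal protein genes in all 12 libraries. The y axis gives log2 insertions per kb, the x axis the 3 subsets of C57BL/6 and then of Hivep3-/- mice, each point is 1 library and each line the mean of 2. The main regions (blue) vary less between groups than the other regions (orange), as in Rpl29 with 3.73 to 3.997 in iNKT1 and 0.06 to 2.06 in the other libraries.

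Differences at some regions rested on single libraries. In Rps9 a region 85 bp after the start of a shorter transcript read 3.28 and 2.39 in C57BL/6 iNKT1, 3.08 and 3.48 in iNKT2 and 2.20 and 1.69 in iNKT17 libraries. The Hivep3-/- libraries read 2.69 and 2.84, 3.55 and 3.03, and 2.44 and 1.66. All 4 iNKT2 libraries were above the iNKT17 ones, by 1.34 in C57BL/6 (SE 0.35, adjusted p = 0.00649) and 1.23 in Hivep3-/- cells (adjusted p = 0.0105). The difference between iNKT1 and iNKT17 in C57BL/6 was 0.89 (SE 0.35, adjusted p = 0.0473) and fell to 0.44 without C57BL/6 iNKT1 library 1 (adjusted p = 0.406; range over alternatives 0.0131 to 0.406). It was 0.64 without C57BL/6 iNKT17 library 2 (adjusted p = 0.26), and the difference in Hivep3-/- cells was 0.84 without Hivep3-/- iNKT17 library 2 (adjusted p = 0.108; range 0.00235 to 0.108). At the upstream region of Rpl13 the change of iNKT2 against iNKT17 in Hivep3-/- cells was -0.84 (SE 0.27, adjusted p = 0.0185), but -0.37 without Hivep3-/- iNKT2 library 1, which read 2.72 beside 3.66 in library 2 (adjusted p = 0.238; range 0.000894 to 0.238), and -0.61 without Hivep3-/- iNKT17 library 2 (adjusted p = 0.149). The change of iNKT1 against iNKT17 there was -0.64 (adjusted p = 0.0599) and missed the threshold without any 1 of 3 libraries (adjusted p up to 0.328). At Rpl31, a region 768 bp after the start gave -0.60 for iNKT2 against iNKT17 in C57BL/6 (SE 0.19, adjusted p = 0.0184) and -0.42 without C57BL/6 iNKT2 library 2 (adjusted p = 0.16; range 0.00602 to 0.16). An intronic region of Rpl3 was called at 0.72 for iNKT1 against iNKT17 (SE 0.18, adjusted p = 0.00439) and at 0.65 for iNKT2 against iNKT17 (adjusted p = 0.0094) in Hivep3-/- cells.

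Subset differences recurred in both genotypes, which share no library. Between iNKT1 and iNKT2, 15 regions were called in both, 68.2% of the C57BL/6 and 51.7% of the Hivep3-/- calls. Between iNKT1 and iNKT17 there were 20 (71.4% and 58.8%) and between iNKT2 and iNKT17 11 (61.1% and 35.5%), and every one had the same direction in both genotypes. The matching overlap over all regions is not given, and 52.3% to 59.0% of all tested regions were called in each single comparison. The overlap is therefore not read as particular to the members. As a description over regions, the changes in the 2 genotypes had r = 0.88, 0.90 and 0.68 over the member regions, beside 0.82, 0.91 and 0.89 over other coding promoters and 0.84, 0.93 and 0.91 over all regions. The value of the members lay furthest below the others for iNKT2 against iNKT17. Rpl29 alone raised the first 2 values of the members, which were 0.83 and 0.81 without it. By rank the members had rho = 0.66, 0.71 and 0.61. The regions called in both genotypes came from 31 regions of 25 genes, of which 13 were main regions. Where a subset was higher or lower in all of its 4 libraries than in the 8 others, the region counted as set apart. This held for 26 of 122 member regions (21.3%, background 57.8%), for 8 of 81 main regions and for 18 of 41 others. iNKT1 lay above in 7 and below in 4 regions, iNKT2 above in 7 and below in 3, and iNKT17 above in 4 and below in 4.

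Lists of other genes with a housekeeping role gave values near those of the ribosomal protein genes. The median SD of the group means was 0.134 over 109 regions of 78 mitochondrial ribosomal protein genes, 0.116 over 51 regions of proteasome subunits, 0.126 over 61 regions of translation factors and 0.137 over 54 regions of ribosome assembly genes. Between iNKT1 and iNKT2 in C57BL/6, 26 of 109 regions of mitochondrial ribosomal proteins were called (4 higher and 22 lower in iNKT1), 10 of 51 of the proteasome (4 and 6), 12 of 61 of translation factors (8 and 4) and 13 of 54 of ribosome assembly (8 and 5). The background was 55.2%, and 36.6% of other coding promoter regions were called. The median change in that comparison was -0.08 for the mitochondrial and 0.04 for the cytosolic ribosomal proteins. Between genotypes the counts in iNKT1, iNKT2 and iNKT17 cells were 0, 5 and 1 for the mitochondrial ribosomal proteins, 0, 1 and 0 for the proteasome, 1, 4 and 3 for translation factors and 0, 2 and 0 for ribosome assembly. Backgrounds were 9.42%, 16.4% and 4.65%, and 3.58%, 8.77% and 2.21% of other coding promoter regions were called.

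Some motifs were more frequent in ribosomal protein promoters than in other promoters. Searched on both strands were CCGGAAG (ETS factors such as GABP), AAGATGGC (YY1), GGGCGGGG (SP1), GCGCATGCG (NRF1), TATAAA for the TATA box, CACGTG (E-box), TCTCGCGA (the core bound by ZBTB33 in vitro), GGGACTTTC (a kB site) and AACCACA (Runt). CACGTG is its own reverse complement, and a TCTCGCGA match can overlap one on the other strand. TCTCGCGA was present in 16 of 81 nearest regions (19.8%), in 0 of 41 further regions and in 2.35% of the nearest regions of other coding genes (11723 regions). The ETS motif was in 38.3% of nearest regions, 12.2% of further regions and 21.8% of the nearest regions of other coding genes, and YY1 was in 14.8%, 9.76% and 6.50%. Over all 122 member regions the shares were 13.1%, 29.5% and 13.1% for the 3 motifs, beside 1.58%, 16.2% and 5.03% over all other coding promoter regions and 0.572%, 8.30% and 3.54% over all regions.

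The remaining motifs were nearer to other promoters. The SP1 motif was in 33.3% of nearest member regions and in 39.1% of the nearest regions of other coding genes. It was also below other promoters over all regions of each kind, with 26.2% of member regions and 30.6% of other coding promoter regions. The E-box was in 16.0% of nearest member regions and 13.9% of the nearest regions of other coding genes, the TATA box in 13.6% and 8.49%, NRF1 in 3.70% and 3.67%, and Runt in 7.41% and 6.57%. The kB site was in 0 of 122 member regions and in 0.719% of other coding promoter regions. In the RefSeq promoter table of the same build, where 77 promoters of 65 member genes matched, TCTCGCGA was found in 14.3% of them within 100 bases before to 50 after the start, and in 0.734% of all 32851 promoters. The ETS motif was in 27.3% and 6.59% of those windows. A match describes letters in a window and does not show binding. The median GC content was 58.3% in member regions and 59.4% in other coding promoter regions.

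**Figure D5:**
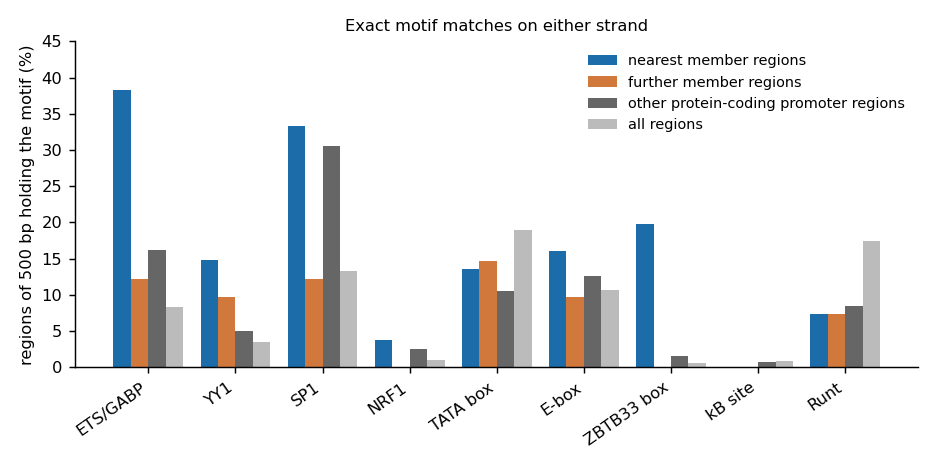
Share of regions that hold each motif exactly on either strand. The y axis gives the percent of regions of 500 bp, and bars show nearest and further regions of ribosomal protein genes, other coding promoter regions and all regions. The bars of other coding promoters hold further regions too. The ZBTB33 box stands at 19.8% in nearest and 0% in further member regions against 1.58% at other coding promoters, and the ETS motif at 38.3% and 12.2% against 16.2%.

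The start of Rps3a1, a 40S gene chosen after the shares were seen, is shown as an example with TCTCGCGA, because few other promoters held this motif. It lies at chr3:86142683-86142822 on the minus strand of GRCm38.p6 (mm10), and capitals again mark the motif match.
Rps3a1: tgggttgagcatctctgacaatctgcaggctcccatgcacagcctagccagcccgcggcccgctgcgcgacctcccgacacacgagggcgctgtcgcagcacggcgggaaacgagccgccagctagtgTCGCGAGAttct
The match lies just after the start, at position 8, and the mean level of the region was 6.68. The highest mean among the 16 regions with the motif was 6.90, at Rps19. Rpl27a, lower in Hivep3-/- iNKT2 cells, was among them.

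A TOP motif was more common than at other genes. A start with C at its first base and at least 4 pyrimidines after it was annotated for 34 of the 81 genes (42.0%) and for 10.5% of other protein-coding genes with a region. With the motif allowed within 5 bases of an annotated start, the shares were 76.5% and 54.3%, a smaller contrast.

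A difference between the libraries numbered 1 and 2 ran through the member regions. In all 6 groups library 1 was above library 2 in most member regions, in 105, 88 and 98 of 122 for C57BL/6 iNKT1, iNKT2 and iNKT17 and in 88, 85 and 87 for Hivep3-/- cells. The median gap was 0.14, 0.09, 0.12, 0.06, 0.06 and 0.08. At other coding promoters, 47.1% to 52.8% of regions were higher in library 1. Regions of the proteasome subunits had a like gap, with 64.7% to 84.3% of 51 regions higher in library 1 and median gaps of 0.07 to 0.12, as had those of the mitochondrial ribosomal proteins, with 61.5% to 69.7% of 109 regions and median gaps of 0.06 to 0.08. Of the 61 regions of translation factors, 42.6% to 62.3% were higher in library 1. In 34 member regions (27.9%) library 1 was the higher one in all 6 groups, as in 9.59% of other coding promoter regions. Across other coding promoters the mean gap had r = -0.45 with GC content, and across members r = 0.07, as a description over regions. The gaps are of the size of the median changes between genotypes, and their part in the calls was not tested beyond the fits with mouse number as a block.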

How the data were processed

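Per the labels and the study's methods, the authors trimmed reads to 50 bp (Trimmomatic 0.39), mapped them to mm10 with the ENCODE pipeline, merged peaks into 500 bp regions, counted insertions and normalized them with voom. The deposited values are log2 insertions per kb, and the libraries share their upper quantiles. All 12 columns were mapped to libraries.

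Start sites came from GENCODE vM21 (GRCm38.p6). Group means of the 12 libraries were fitted on all regions in limma 3.58.1 (R 4.3.3) with a variance trend. A region entered a test when either group averaged 5 or more on the linear scale, with Benjamini-Hochberg adjusted p under 0.1. The interaction terms were tested on all 63309 regions, without this filter. Other values used Python 3.11.15, pandas 2.3.3 and pysam 0.24.0. On simulated data for Hivep3-/- against C57BL/6 in iNKT1 cells (53749 regions tested), 67 of 67 regions changed 3-fold were recovered, and 20 unchanged regions were called. The largest change of a member region in that comparison was 0.50, well below 3-fold. The simulation therefore does not gauge how well changes of the members' size would be found.

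Members and lists were chosen with earlier results of these data known. Named were the 5 highest and 5 lowest genes, the 5 most and 3 least varied regions, up to 5 largest called changes per comparison, genes without a region and 20 genes set by name. Main regions, the subset patterns and the example with TCTCGCGA were chosen after the values were seen. Some items that these rules select are not reported here.

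Titles give the 3 subsets of a genotype the same mouse number, which is where the pairing comes from; deviations of same-numbered libraries correlated with 0.14 to 0.24 over 56928 regions in all 15 pairs of groups. The alternatives were a replicate block, other filters, pseudocounts of 1 and 5, equal promoter medians, no trend, narrower or single regions per gene, coding starts only, other thresholds and each library left out.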

Additional observations from a re-analysis of the deposited data

Results flagged for a closer look

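The change between genotypes differed between subsets at the inner region of Rpl37, by the interaction term in limma. Hivep3-/- minus C57BL/6 was 0.43 in iNKT2 cells and the difference from the change in iNKT17 cells was 0.50 (SE 0.14, adjusted p = 0.0997), the single such call among the 122 member regions (background 3.53%). Across the other interaction terms, 0 of 122 were called by limma for iNKT1 minus iNKT2 (background 10.6%, 4 at unadjusted p under 0.05) and 0 of 122 for iNKT1 minus iNKT17 (background 3.7%, 0 at unadjusted p under 0.05).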

How the results depend on the processing

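Of 330 alternatives for 33 named changes, 311 kept the direction and an adjusted p under 0.1, 19 (of 10 changes) lost the threshold and 0 reversed. Medians of the members moved by less than the replicate SD of 0.114. That SD is larger than each median change between genotypes, so this does not show whether those changes held. Counts at any fold are given in the order iNKT1, iNKT2 and iNKT17 between genotypes, then iNKT1 against iNKT2, iNKT1 against iNKT17 and iNKT2 against iNKT17. The replicate block gave 4, 14 and 12 between genotypes (backgrounds 14.8%, 24.8% and 11.3%), 37, 45 and 33 in C57BL/6, and 43, 52 and 49 in Hivep3-/- cells, and no named call was lost under it. With 1 region per gene, the nearest ones gave 7, 12 and 8 in C57BL/6 and 16, 18 and 15 in Hivep3-/- cells, and the main ones 7, 10 and 8, and 15, 16 and 17; at 3-fold both gave 0 where 1 or 2 had been called. Fewer regions enter these counts by construction. Of the nearest regions of other coding genes, 31.6%, 34.1% and 27.7% were called in C57BL/6 and 38.7%, 33.8% and 31.1% in Hivep3-/- cells. The nearest member regions had 8.64%, 14.8% and 9.88%, and 19.8%, 22.2% and 18.5%. Pseudocount 5 gave 1 called region between genotypes in iNKT1 and 1 in iNKT17 cells, and 0 at 3-fold in both comparisons of iNKT1 in each genotype; pseudocount 1 gave 1 in iNKT17 cells between genotypes and 1 at 3-fold for iNKT1 against iNKT17 in C57BL/6. Without a variance trend 1 region was called in iNKT17 cells between genotypes and 17 for iNKT1 against iNKT17 in C57BL/6, where an adjusted p under 0.05 gave 18 and a window of 500 bp gave 1 at 3-fold. At 2-fold, 1 region was called for iNKT2 against iNKT17 in C57BL/6 and in Hivep3-/- cells, and 2 for iNKT1 against iNKT17 in Hivep3-/- cells. Apart from those that follow from fewer regions, the cause was not tested. For the pseudocounts, the fit without a trend, the other thresholds and the 500 bp window, the matching shares of all regions are not given. Those counts are therefore not read as a trait of the members.

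Leaving out each library gave 0 to 1, 1 to 6 and 0 to 4 calls between genotypes, 15 to 22, 13 to 30 and 9 to 20 in C57BL/6, and 20 to 27, 18 to 41 and 22 to 40 in Hivep3-/- cells; at 3-fold the ranges were 1 to 1, 1 to 2 and 0 to 1 in C57BL/6 and 1 to 1, 1 to 1 and 0 to 1 in Hivep3-/- cells. The 4 calls between genotypes in iNKT17 cells and the 6 in iNKT2 cells came without library 1 of the Hivep3-/- group, and the single one left in iNKT2 cells without C57BL/6 library 1. For iNKT1 against iNKT17, 16 and 13 came without C57BL/6 iNKT1 library 1 and iNKT17 library 2, and 19, 18 and 22 without Hivep3-/- iNKT1 library 1, iNKT1 library 2 and iNKT17 library 2. For iNKT2 against iNKT17 in C57BL/6, 9 came without iNKT2 library 1. The call in iNKT1 cells between genotypes came without C57BL/6 library 2, and those at 3-fold for iNKT2 against iNKT17 without iNKT17 library 1 of either genotype. The lone library left is assumed to vary like the other groups. The matching shares of all regions are not given for these fits either.

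With 2 libraries a group, a single value has no exact test that reaches 0.05 (the smallest p is 0.333), so tests rest on the spread pooled over groups. Depth is unknown, and low regions such as the inner ones of Rpl29 and Rps9 have coarse values. Reads that ribosomal protein genes share with near-identical pseudogenes were not examined.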
